A study of Triticum aestivum with 48 samples.

Results

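The 100 probe sets described here had the most strongly shared drop in root signal under low nitrogen (N) among 61179 probe sets of the Affymetrix Wheat Genome Array. A probe set is a group of short probes against 1 transcript sequence. Each array's median was subtracted from its log2 values, and the mean of 3 control root arrays was subtracted from the mean of 3 stressed root arrays in each of 4 genotypes. The score of a probe set is the highest of its 4 differences, that is, the one of the genotype in which it was lowered least, and the members are the 100 probe sets with the lowest score. The members were thus chosen by these root differences, which are given as a description with no test. All levels below are log2 intensities above the array median, and all N differences are stressed minus control on that scale.

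The genotypes of bread wheat were HD2967, K9107, Chotilarma (CL) and K307, grown for 15 days in vermiculite and perlite, 5 seeds to a pot. Stressed plants had 0.08 mM calcium nitrate as their N source and control plants had 8 mM, in an otherwise N-free modified MS medium, so the stressed plants also received less calcium from this salt. Roots and shoots of each genotype at each supply make 16 groups of 3 arrays, 48 in all. The labels speak of 3 sets of pots per genotype and condition and do not say whether an array holds 1 plant or a pool, so p-values measure the spread between these samples.

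Roots take up nitrate through transporters of the NRT1 and NRT2 families, reduce it through nitrate and nitrite reductase, and build the ammonium into glutamine and glutamate through glutamine synthetase and glutamate synthase. In Arabidopsis and in cereals nitrate is also a signal: many root genes for uptake, assimilation and the supply of reducing power are induced when nitrate is present and are low when it is scarce. Bread wheat carries related copies of most genes on its 3 subgenomes, and a probe set can read more than 1 copy. No gene symbol or synonym in the annotation used here matched the nitrate uptake and assimilation genes just named, and gene descriptions were not searched. Whether any member is one of these genes could thus not be told.

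The array medians fell into 4 separate ranges of 12 arrays each, called normalization sets here, from 1.14 to 1.26, from 4.33 to 4.46, from 4.60 to 4.68 and from 5.31 to 5.39. CL had the lowest set to itself, so that its scale and its genotype cannot be told apart. CL log2 differences are not read as ordinary folds, since its array medians lie far below those of the other sets. Whether its scale is compressed at the low end was not tested. HD2967, K307 and K9107 arrays were spread over the other 3 sets, but not evenly. All HD2967 control arrays lay in the set from 4.60 to 4.68. That set held 1 of the 3 stressed HD2967 root arrays and no K9107 root array. N supply and set are thus largely confounded in the HD2967 root differences. The tissue labels were set against 8 probe sets of 5 leaf genes (PsbO and PsbP of photosystem II, the Calvin cycle enzymes PRK and FBP, and petC of the cytochrome b6f complex). Their median level lay between -0.81 and 1.01 on the 24 root arrays and between 4.02 and 7.61 on the 24 shoot arrays. CL stressed root array 1 has a tissue field that reads shoot while its other labels read root, and it lay among the roots by these markers. Without it, 83 of the 100 members stayed among the 100 lowest scores.

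In roots the median member was lower under stress in each genotype. The median difference over the 100 members was -1.17 (HD2967), -1.08 (K9107), -1.04 (K307) and -1.04 (CL), against 0.04, -0.01, 0.05 and -0.01 over all probe sets. Single members reached -5.75 for HD2967, -4.52 for K9107, -3.33 for K307 and -3.13 for CL. Sizes in CL are on its own scale and are not comparable with those of the other genotypes. The score and the counts over all 4 genotypes nonetheless use them as they stand. Of the members, 21 were lower by at least 1 log2 unit in all 4 genotypes. The smallest drop, which sets the score, was that of HD2967 for 24 members, of K9107 for 18, of K307 for 29 and of CL for 29. The list depended on the genotypes required. The rule kept 47 of the 100 members without CL, 56 without HD2967, 58 without K307 and 77 without K9107, since a genotype that is left out no longer limits the score. Fewer cells of a type and less RNA per cell cannot be told apart in such whole-root samples.

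The leaf genes were also set beside the root change, as a measure of other signals that differ between the supplies. In HD2967 and K9107, 6 of the 8 leaf probe sets were higher in stressed than in control roots, in CL 5 and in K307 4. Their summed level ran from -2.44 to 1.63 on stressed against -4.65 to -2.50 on control HD2967 root arrays, and from -1.58 to 1.88 on stressed against -4.19 to -1.90 on control K9107 root arrays. It ran from -3.85 to 3.25 on stressed against -3.07 to 0.80 on control K307 root arrays, and from 0.95 to 4.88 on stressed against 2.22 to 3.38 on control CL root arrays. The supplies were thus apart by this sum in HD2967 and K9107 and overlapped in K307 and CL. The leaf probe set with the largest difference in HD2967 and K9107, 1 of the 2 for petC, was higher by 0.77 and 1.18 there. The other petC probe set differed by -0.02 in HD2967 and 0.13 in K9107. The part of these signals in the root differences of the members was not tested.

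The members were compared array by array as well. In 43 members every stressed root array lay below every control root array in all 4 genotypes, as did 0.127% of all probe sets. The groups did not overlap in exactly 3 genotypes for 37 members, in 2 for 17 and in 1 for 3, and no share of all probe sets was computed for these. By genotype the groups were apart in 72 members in HD2967 (9.46% of all probe sets), 89 in K9107 (6.12%), 92 in K307 (6.12%) and 67 in CL (6.38%). The rule used these same arrays, so the counts describe how evenly its members behaved and support nothing further. Within single normalization sets that held both supplies, all 6 available root differences were below 0 in 93 members (4.04% of all probe sets). The median within-set difference was -1.52 in HD2967, -1.31 and -1.03 in K9107, -1.14 and -1.04 in K307 and -1.04 in CL. Few arrays stand behind most of these values. Those of -1.31 in K9107 and -1.14 in K307 compare 1 stressed with 1 control array. That of HD2967 has 1 stressed array, and that of -1.04 in K307 has 1 control array. With the set fitted as a term, each genotype's difference was below 0 for all 100 members (9.34% of all probe sets). A mean difference below 0 in each genotype was found in 5077 probe sets, 8.30% of all.

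Most members were above the array median at the control supply. The control root mean exceeded the array median in all 4 genotypes for 95 members, and exceeded it by over 2 log2 units in all 4 for 49. No share of all probe sets was computed for these counts. A probe set near the low end has little room to drop, so the rule itself favours such levels.

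The threshold falls among closely spaced values. The last 3 probe sets inside it were Ta.21061.1.S1_at and Ta.5549.1.S1_x_at, both with a score of -0.59, and Ta.30531.2.S1_at at -0.58. The first 3 outside it, Ta.13165.3.S1_x_at, Ta.12286.1.A1_at and Ta.3957.3.S1_at, all had a score of -0.57.

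The lowest score belonged to Ta.16731.1.S1_x_at, which has no gene name in the annotation used here. Its root levels were 1.05, 2.99 and 2.01 in stressed against 5.16, 5.56 and 4.69 in control HD2967, and 0.38, 1.41 and 0.23 in stressed against 4.92, 5.93 and 4.73 in control K9107. They were 1.64, 0.94 and 1.93 in stressed against 5.08, 5.16 and 4.27 in control K307, and -0.70, -0.53 and -0.42 in stressed against 1.49, 0.62 and 2.01 in control CL. No stressed array reached the level of any control array of its genotype, and the differences were -3.12, -4.52, -3.33 and -1.92 in HD2967, K9107, K307 and CL. In shoots the same probe set lay below the array median on all 24 arrays, between -2.86 and -0.54, at either supply.

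Ta.8228.1.S1_at, annotated to the gene LOC543097, came next. Its root levels were 2.49, 2.33 and 2.54 in stressed against 4.36, 4.40 and 4.23 in control HD2967, and 2.35, 2.87 and 2.37 in stressed against 5.01, 4.67 and 5.14 in control K9107. They were 2.63, 2.92 and 2.26 in stressed against 4.81, 4.68 and 4.38 in control K307, and 1.46, 0.97 and 0.40 in stressed against 2.77, 4.07 and 3.30 in control CL. The groups were apart in every genotype, by differences of -1.88, -2.41, -2.02 and -2.43.

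TaAffx.42385.1.S1_at was lowered from unequal starting levels. It lay at 4.03, 3.98 and 4.28 in stressed against 5.67, 5.80 and 5.97 in control CL roots, and at 1.32, 1.64 and 1.61 in stressed against 2.64, 3.55 and 3.44 in control K307 roots. It lay at 3.22, 4.29 and 2.28 in stressed against 5.17, 5.21 and 5.11 in control HD2967 roots, and at 1.22, 1.36 and 1.95 in stressed against 4.12, 3.73 and 2.45 in control K9107 roots. The arrays did not overlap, and the 4 differences spanned -1.92 to -1.69.

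Ta.5549.3.S1_at stood out for its size in HD2967. Its levels were -1.11, -0.60 and -0.64 in stressed against 3.66, 5.81 and 5.44 in control HD2967 roots. The stressed arrays of K9107 and K307 were about as low, between -1.29 and -0.37, but their control arrays were lower than those of HD2967, at 2.25, 1.69 and 0.04 in K9107 and 1.92, 1.28 and -0.11 in K307. CL control roots lay at 2.07, 1.70 and 0.87. The differences were -5.75, -2.57, -1.58 and -1.93 in HD2967, K9107, K307 and CL. All 5 probe sets of the Ta.5549 sequence cluster on the array were members, with differences from -5.75 to -3.18 in HD2967, from -2.57 to -0.59 in K9107, from -1.58 to -0.67 in K307 and from -1.93 to -0.83 in CL.

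Ta.30726.1.S1_at and Ta.7740.1.A1_at complete the 6 lowest scores. Ta.30726.1.S1_at lay at 0.85, 1.86 and -0.63 in stressed against 2.44, 2.24 and 2.46 in control HD2967 roots, and at -1.17, -0.69 and -0.79 in stressed against 1.71, 2.07 and 0.68 in control K9107 roots. It lay at -0.92, -1.43 and -0.96 in stressed against -0.09, 0.64 and 0.66 in control K307 roots, and at 0.04, 0.55 and 0.88 in stressed against 2.73, 1.86 and 2.46 in control CL roots. Ta.7740.1.A1_at lay at 3.96, 3.86 and 1.98 in stressed against 4.70, 4.37 and 5.67 in control HD2967 roots, at 0.24, 0.70 and 0.14 in stressed against 2.88, 3.41 and 2.39 in control K9107 roots, at -0.82, 0.58 and 0.11 in stressed against 1.40, 1.10 and 1.34 in control K307 roots, and at 0.80, 0.27 and 0.22 in stressed against 2.12, 1.58 and 2.03 in control CL roots. The differences of Ta.30726.1.S1_at were -1.69, -2.37, -1.51 and -1.86 in HD2967, K9107, K307 and CL, and its stressed and control arrays were apart in each genotype. Those of Ta.7740.1.A1_at were -1.64, -2.53, -1.32 and -1.48, and its arrays were apart as well.

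The next 6 members differed among themselves in how even their arrays were. Ta.27054.1.S1_at (-1.29, -1.64, -1.69 and -1.84 in HD2967, K9107, K307 and CL) had a spread of 1.04, 4.76 and 3.86 among its stressed CL arrays, against 5.22, 5.05 and 4.91 in control CL. Ta.23205.1.S1_at (-1.36, -1.81, -1.24 and -1.62) overlapped in HD2967, where stressed array 3 lay at 4.85 and control array 3 at 4.60. The difference of Ta.23205.1.S1_at within the HD2967 set that held both supplies was -0.18.

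TaAffx.106201.2.S1_s_at (-1.10, -1.62, -2.01 and -1.89) varied little in K307, with 1.64, 1.66 and 1.58 in stressed against 3.66, 3.60 and 3.64 in control roots. Its HD2967 drop was not seen inside 1 normalization set, where the difference was 0.03. Ta.18673.1.S1_at had differences of -1.27, -1.52, -1.17 and -1.12. In these members the HD2967 arrays of a group disagreed. They were close together for TaAffx.29050.1.S1_s_at, which lay at 1.77, 1.78 and 1.82 in stressed against 3.62, 3.76 and 3.59 in control HD2967 roots. The differences of TaAffx.29050.1.S1_s_at were -1.87, -1.97, -2.23 and -1.09, and those of TaAffx.59229.1.S1_at were -1.49, -1.10, -1.82 and -3.13.

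Several members read the same sequence cluster and are not independent of each other. The 100 probe sets carried 85 cluster identifiers, and 11 of these held more than 1 member, 26 members in all. Besides Ta.5549, 3 of the 5 probe sets of Ta.21061 were members, and 9 other clusters held 2 each. The clusters also had 54 probe sets on the array that were not members. Of these, 31 (57.4%) were below 0 in all 4 genotypes, against 8.30% of all probe sets. They share clusters with the members and were read on the root arrays that chose them, so this count is not independent of the rule. Probe sets whose probes also match other sequences (suffix _x_at) made up 20 of the 100 members, against 11.1% of all probe sets, and those that match several transcripts alike (suffix _s_at) made up 9, against 4.31%. Probe sets with the TaAffx prefix made up 24 of the members, against 48.5% of all.

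Gene annotation covered 6 members, and 2.08% of all probe sets. LOC543494, whose synonym is WGA2, encodes an isolectin of wheat germ agglutinin, a lectin that binds chitin. The other 5 genes are known here by identifier alone. The WGA2 probe set Ta.147.1.S1_at, with differences of -1.86, -1.09, -0.59 and -1.04 in HD2967, K9107, K307 and CL, was scattered. Its levels were -0.41, -1.25 and -0.37 in stressed against 0.08, 1.79 and 1.69 in control HD2967 roots, and 0.28, 1.57 and -0.43 in stressed against 0.75, 1.73 and 2.20 in control K9107 roots. They were -0.95, -0.25 and -1.19 in stressed against -0.28, 0.37 and -0.71 in control K307 roots, and 1.37, 0.10 and 0.22 in stressed against 0.17, 0.79 and 3.86 in control CL roots. The groups overlapped in K9107, K307 and CL, only 1 control array of CL, at 3.86, lay above all its stressed arrays, and in 1 of the sets of K307 the difference was 0.03.

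The remaining annotated members varied in their spread. Ta.27776.1.S1_at (LOC780638) lay at 0.16, 0.27 and 0.36 in stressed against 1.98, 2.78 and 1.95 in control K9107 roots, and its differences were -1.12, -1.97, -1.28 and -0.97 in HD2967, K9107, K307 and CL. Ta.30336.1.S1_x_at (LOC542792) lay at 1.71, 0.99 and 1.57 in stressed against 4.58, 4.20 and 4.43 in control CL roots, with differences of -1.60, -1.99, -0.67 and -2.98. Both were apart on every array in CL. In K307, Ta.30336.1.S1_x_at lay at -0.32, -0.73 and -0.45 in stressed against -0.66, 1.12 and 0.04 in control roots, so the groups overlapped, and in 1 of the K307 sets the difference was -0.07.

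TaAffx.129134.1.S1_at (LOC606316) lay at 4.50, 4.95 and 4.41 in stressed against 6.14, 6.09 and 6.45 in control HD2967 roots, at 4.30, 4.21 and 4.81 in stressed against 5.28, 5.33 and 5.14 in control K9107 roots, at 3.92, 4.09 and 4.09 in stressed against 4.80, 4.85 and 5.41 in control K307 roots, and at 6.41, 7.10 and 7.11 in stressed against 7.94, 7.73 and 7.66 in control CL roots. No array of TaAffx.129134.1.S1_at overlapped between the supplies in roots. Its differences were -1.60, -0.81, -0.98 and -0.90 in roots, and Ta.21350.2.S1_at (LOC543150) had -0.78, -2.04, -1.49 and -1.23. Ta.21350.2.S1_at was uneven, at 2.86, 1.05 and 1.36 in stressed against 2.87, 3.16 and 3.70 in control K307 roots, and at -0.19, 1.12 and -0.03 in stressed against 2.43, 0.98 and 1.19 in control CL roots. It lay at 2.03, 2.35 and 1.98 in stressed against 2.31, 2.83 and 3.57 in control HD2967 roots, and at 1.64, 1.18 and 1.78 in stressed against 3.00, 4.17 and 3.56 in control K9107 roots. The groups overlapped in HD2967 and CL and were apart in K9107 and K307. LOC606316 and LOC543150 each have another probe set that is no member. That of LOC606316 was also below 0 in each genotype, at -0.87, -0.53, -0.30 and -0.53, whereas that of LOC543150 was at 0.38, -0.15, -0.56 and -1.54. So the 2 probe sets of LOC543150 disagreed in direction in HD2967.

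Shoot arrays took no part in the choice of members, so the shoot N response could be tested. Whether same-numbered root and shoot arrays share pots was not tested. Their residuals correlated between -0.319 and 0.271, and above 0.1 in all 3 pairs in stressed K9107 alone (0.169 to 0.271). The shoot test is apart from the choice of members only as far as such pairs are independent. Few members passed that test. In limma fits with a term for the normalization set, 4 of the 100 members passed an adjusted p of 0.05 in the mean over the 4 genotypes: 1 rose (0.517% of all probe sets rose) and 3 fell (0.245% fell). The shoot estimate was below 0 in 72 members, against 54.0% of all probe sets, and 25 were below 0 at an unadjusted p under 0.05, against 5.33%. At that level 1 member was above 0, against 6.94% of all probe sets. The median shoot difference was -0.14 over the members and -0.01 over all probe sets. The lean below 0 was not seen in K307 shoots. There 45 members were below 0, against 81 for K9107, 72 for HD2967 and 68 for CL. Shares of all probe sets below 0 were not computed by genotype. The K307 median was 0.07 over the members and 0.02 over all probe sets. The other medians were -0.37 against -0.12 (K9107), -0.20 against 0.04 (HD2967) and -0.15 against 0.0002 (CL). In 23 members the shoot estimate was below 0 in all 4 genotypes, against 8.21% of all probe sets, and in 2 it was above 0 in all 4, against 6.26%.

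Ta.25181.1.S1_at moved in opposite directions in the 2 organs. In roots its differences were -1.50, -0.79, -0.60 and -2.30 in HD2967, K9107, K307 and CL, at 0.89, 1.88 and 2.02 in stressed against 3.68, 3.83 and 4.17 in control CL, and 3.23, 3.03 and 3.42 in stressed against 4.15, 4.72 and 5.33 in control HD2967. Root levels were 2.34, 3.25 and 2.50 in stressed against 2.77, 3.66 and 4.03 in control K9107, and 3.80, 4.33 and 4.27 in stressed against 4.77, 5.00 and 4.42 in control K307. The groups were apart in HD2967, K307 and CL and overlapped in K9107. In shoots it rose by 3.03 ± 0.45 (SE) in the mean over genotypes (limma, adjusted p = 0.00332), and it had an estimate above 0 in 4 of 4 genotypes. Shoot levels were 1.21, 4.41 and 4.15 in stressed against -1.94, -0.38 and -0.27 in control K9107, and 4.26, 2.49 and 4.64 in stressed against 0.82, -1.24 and -0.89 in control K307. They were 1.95, 2.19 and 1.65 in stressed against 0.06, 0.18 and -0.11 in control CL, and 1.89, -0.52 and 3.14 in stressed against -1.32, 0.55 and 1.96 in control HD2967. The shoot arrays were apart in K9107, K307 and CL and overlapped in HD2967. Within single sets the shoot difference was 3.15 and 4.73 in K9107, 2.55 and 5.53 in K307 and 1.89 in CL, and the call held without each shoot array in turn (adjusted p from 0.00029 to 0.0219).

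The other 3 members that passed fell in the shoot mean. TaAffx.129134.1.S1_at (LOC606316) fell by 0.69 ± 0.15 (adjusted p = 0.0344), with -0.60, -0.99, -0.22 and -0.97 in HD2967, K9107, K307 and CL. TaAffx.29050.1.S1_s_at fell by 0.80 ± 0.18 (adjusted p = 0.043), with -1.20, -0.64, -0.71 and -0.67. Ta.13362.1.S1_at fell by 1.03 ± 0.23 (adjusted p = 0.0467), with -0.98, -0.35, -1.47 and -1.30. Each had a fitted estimate below 0 in 4 of 4 genotypes, but within single sets not all differences ran that way. They were -1.19 and -0.87 in K9107, -0.07 and -0.22 in K307 and -0.97 in CL for TaAffx.129134.1.S1_at, and -1.98 and 0.47 in K9107, -0.57 and -0.96 in K307 and -0.67 in CL for TaAffx.29050.1.S1_s_at. For Ta.13362.1.S1_at they were -0.55 and 0.13 in K9107, -0.82 and -2.34 in K307 and -1.30 in CL. In 1 of the K9107 sets TaAffx.29050.1.S1_s_at and Ta.13362.1.S1_at were thus above 0. TaAffx.129134.1.S1_at lay in shoots at 4.74, 4.82 and 4.01 in stressed against 4.96, 5.02 and 4.95 in control HD2967, at 4.12, 3.93 and 3.86 in stressed against 5.31, 5.34 and 4.25 in control K9107, at 4.82, 4.59 and 4.33 in stressed against 4.77, 4.74 and 4.55 in control K307, and at 4.56, 5.44 and 5.57 in stressed against 5.73, 6.31 and 6.44 in control CL. The groups overlapped in K307 alone. Ta.13362.1.S1_at lay in shoots at 4.55, 4.75 and 3.68 in stressed against 5.31, 4.38 and 4.32 in control HD2967, at 2.77, 2.38 and 1.20 in stressed against 3.32, 3.03 and 1.47 in control K9107, at 1.75, 1.52 and 0.22 in stressed against 2.46, 2.23 and 2.56 in control K307, and at 4.63, 4.97 and 5.27 in stressed against 6.75, 5.38 and 6.63 in control CL. The groups overlapped in HD2967 and K9107. In roots Ta.13362.1.S1_at lay at 1.16, 1.05 and 0.20 in stressed against 1.58, 1.75 and 2.65 in control HD2967, at 0.60, 0.25 and -0.17 in stressed against 1.46, 0.58 and 0.86 in control K9107, at 0.45, -0.30 and -0.64 in stressed against -0.01, 0.63 and 0.98 in control K307, and at 0.28, 0.14 and -0.08 in stressed against 1.82, 1.08 and 1.05 in control CL. Its root groups overlapped in K9107 and K307. TaAffx.29050.1.S1_s_at lay in shoots at 0.50, 0.49 and 0.63 in stressed against 1.48, 2.45 and 1.88 in control HD2967, and at 0.95, 0.55 and 0.78 in stressed against 1.32, 1.22 and 1.75 in control K307. It lay at 1.68, 2.31 and 1.68 in stressed against 2.52, 2.69 and 2.46 in control CL, and at 0.54, 1.70 and 1.08 in stressed against 2.52, 1.05 and 1.42 in control K9107, where the groups overlapped. These 3 calls were near the threshold. Of 24 fits that each left out 1 shoot array, 12 no longer called TaAffx.129134.1.S1_at, 18 no longer called TaAffx.29050.1.S1_s_at and 20 no longer called Ta.13362.1.S1_at. No member fell in limma when the CL arrays were left out (adjusted p = 0.145, 0.196 and 0.242 for the 3), and 19 were below 0 at an unadjusted p under 0.05. No member fell either without any 1 of HD2967 stressed 3 or control 3, K9107 stressed 1, stressed 3 or control 1, and K307 stressed 1, stressed 2, stressed 3, control 1 or control 2 shoot arrays, and 1 fell without HD2967 stressed 2 or control 2 or CL stressed 1, stressed 3 or control 1.

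Within single genotypes 2 members passed in shoots, both in CL. In HD2967, K9107 and K307 shoots 0 members passed in limma, against 0.0180% and 0.00490% of all probe sets higher and lower in HD2967, 0.0654% and 0.0392% in K9107 and 0.0196% and 0.0212% in K307. At an unadjusted p under 0.05, HD2967 had 0 members higher and 7 lower, K9107 had 6 and 8, and K307 had 3 and 5. Over all probe sets these shares were 2.76% and 1.48%, 4.36% and 8.09%, and 2.45% and 1.85%. HD2967 shoot arrays of the 2 supplies shared no normalization set, so that comparison rests wholly on the fitted set term.

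The smallest p among the members in HD2967 shoots was that of Ta.8228.1.S1_at (LOC543097), which is also second by its root score. Its shoot levels were 1.53, 1.36 and 0.58 in stressed against 2.29, 3.21 and 2.92 in control HD2967, with an estimate of -2.12 ± 0.72 that did not pass (limma, adjusted p = 0.936). TaAffx.29050.1.S1_s_at and Ta.26230.1.S1_x_at followed at -1.20 ± 0.46 and -1.04 ± 0.40. In K9107 the smallest p was that of Ta.25181.1.S1_at (4.26 ± 0.91, adjusted p = 0.0812), before Ta.13937.1.A1_at at -0.77 ± 0.19 and TaAffx.129134.1.S1_at at -0.99 ± 0.30. In K307 it was again Ta.25181.1.S1_at (4.76 ± 0.89, adjusted p = 0.0913), before TaAffx.110973.1.S1_at at -1.86 ± 0.47 and Ta.13362.1.S1_at at -1.47 ± 0.46. Without K307 control 1, or without HD2967 control 1, 1 member passed in K9107 and 1 in K307, Ta.25181.1.S1_at in both.

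In CL shoots 0 members rose, against 2.92% of all probe sets, and 2 fell, against 0.521%. Both belong to cluster Ta.30603 and are not independent. Ta.30603.1.S1_s_at fell by 1.33 ± 0.22 (limma, adjusted p = 0.004), at 4.92, 5.65 and 5.97 in stressed against 7.01, 6.62 and 6.89 in control CL shoots. Ta.30603.1.S1_x_at fell by 1.19 ± 0.23 (adjusted p = 0.00865), at 1.81, 2.43 and 2.75 in stressed against 3.38, 3.37 and 3.82 in control CL shoots. The arrays did not overlap in either. In K307 shoots Ta.30603.1.S1_s_at ran the other way, at 5.83, 6.01 and 6.09 in stressed against 5.64, 5.62 and 5.35 in control. At an unadjusted p under 0.05, 7 members were higher and 12 lower in CL shoots, against 10.6% and 5.53% of all probe sets. With the replicate number as a block within CL, 4 members passed, as against 2, and without CL stressed 3, K9107 control 3 or CL control 2 shoot arrays 4, 4 and 6 passed. The share of all probe sets that passed in these other fits was not computed.

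Whether the genotypes differed in their shoot response was tested directly. No member passed the F-test of the genotype-by-N interaction (limma, 0 of 100 at an adjusted p of 0.05, against 0.0458% of all probe sets), and 8 had an unadjusted p under 0.05, against 9.75%.

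Most members had a higher signal in roots than in shoots. The root arrays chose the members, and a member had to be high in control roots to be able to drop, so root against shoot is given as a description with no test. With both supplies and all genotypes averaged in the fit with a set term, the root minus shoot difference was above 0 in 84 members, against 60.4% of all probe sets, and below 0 in 16. Its median was 1.37 over the members and 0.05 over all probe sets. On stressed arrays alone it was above 0 in 77 members, against 62.6% of all probe sets, with a median of 0.85, and these root arrays took part in the choice too. Within each of the 4 normalization sets between 82 and 86 members were above 0, and no share of all probe sets was computed for these. In the sets from 4.60 to 4.68 and from 5.31 to 5.39, roots and shoots held unequal mixes of genotype and supply.

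Ta.5510.1.S1_at had the largest difference toward roots, 5.86 ± 0.15 (SE of the fit). It lay at 6.09, 5.80 and 5.31 in stressed and 6.72, 6.56 and 7.08 in control HD2967 roots, against -1.51, -1.80 and -1.46 in stressed and 1.01, -1.19 and -1.34 in control HD2967 shoots. So even its lowest HD2967 root array was over 4 log2 units above its highest HD2967 shoot array. Ta.16731.1.S1_x_at (4.60 ± 0.14), Ta.16917.1.S1_at (4.25 ± 0.12), TaAffx.59229.1.S1_at (4.22 ± 0.11) and Ta.13165.3.S1_a_at (4.19 ± 0.14) followed. Ta.16731.1.S1_x_at differed by 5.50 to 6.42 within the 3 mixed sets and by 1.12 in CL.

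The 16 members lower in roots than in shoots form a contrasting group. The lowest were Ta.5600.1.S1_s_at (-3.42 ± 0.09), Ta.30603.1.S1_s_at (-3.13 ± 0.11), Ta.7740.1.A1_at (-2.91 ± 0.23), Ta.13362.1.S1_at (-2.84 ± 0.15) and Ta.7740.1.A1_x_at (-2.80 ± 0.19). Ta.5600.1.S1_s_at lay at 0.99, 0.63 and 1.08 in stressed and 2.15, 2.21 and 1.86 in control K9107 roots, against 4.88, 4.51 and 4.92 in stressed and 5.40, 5.08 and 5.24 in control K9107 shoots. Its root and shoot arrays of K9107 were far apart at both supplies. Ta.30603.1.S1_s_at and Ta.13362.1.S1_at, which fell in shoots of CL and in the shoot mean, both belong to this group.

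The root level of the members also varied with the genotype. These are the root arrays that chose the members, so the genotype levels too are a description with no test. With the mean over both supplies, HD2967 had the highest fitted level of HD2967, K9107 and K307 in 75 members, against 33.4% of all probe sets. K9107 was highest in 15 members, against 35.2%, and K307 in 10, against 31.3%. The median K9107 minus HD2967 level was -0.59 over the members and 0.01 over all probe sets, and the median K307 minus HD2967 level was -0.97 and 0.01. The count of 75 lay between 72 and 78 when single root arrays were left out.

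Within single sets, at the same N supply, HD2967 was also the higher. On stressed roots HD2967 exceeded K9107 in 82 and 77 members, with medians of 0.58 and 0.44, in the 2 sets that held both. HD2967 exceeded K307 in 81 and 67 members on stressed roots, with medians of 0.97 and 0.26, and in 79 members on control roots, with a median of 0.87. Between 47.9% and 49.5% of all probe sets were higher in HD2967 in these 5 comparisons, each of which has as few as 1 array on a side.

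The 5 members ranked first by the genotype fit did not all have the same order of genotypes. Ta.13937.1.A1_at was higher in K9107, at 3.93, 3.90 and 4.23 in stressed and 4.63, 5.35 and 4.86 in control K9107 roots, against 0.54, 0.23 and -0.21 in stressed and 1.36, 1.54 and 1.68 in control HD2967 roots. K307 lay at -0.49, -0.42 and -0.37 in stressed and 0.55, 0.52 and 0.84 in control roots. The N difference of this member was nonetheless close in all 3 genotypes, at -1.34, -0.92 and -1.06 in HD2967, K9107 and K307.

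Ta.8574.2.A1_at was low in K307 alone of the 3. Its K307 roots lay at 0.75, -0.25 and -0.59 in stressed and 1.52, 2.05 and 2.14 in control plants, against 4.87, 4.55 and 5.25 in stressed and 5.85, 6.01 and 5.83 in control HD2967 roots. K9107 averaged 4.62 ± 0.92 (SD, n = 6) over both supplies, against 5.39 ± 0.60 in HD2967 (SD, n = 6). Ta.1674.2.S1_s_at, Ta.25026.1.S1_at and Ta.7740.1.A1_x_at were all highest in HD2967, with means of 4.07, 2.72 and 3.06 there, against 2.15, 1.07 and 0.87 in K9107 and 0.81, -0.31 and 0.19 in K307.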

How the data were processed

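Root and shoot RNA was hybridised to the Affymetrix Wheat Genome Array. The authors deposited log2 signal intensities of 61290 probe sets. RMA is the tool in the submitters' processing notes, and GeneSpring 14.5 was used afterwards per the series description. The version of RMA is not given in the sources used here, and neither are the arrays it normalized as 1 batch. No depth or detection call was used, and the number of arrays limits the precision.

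From these values 111 control probe sets were left out and each array's median was subtracted. The members and lists were chosen with earlier results of these data known. Named are the annotated members, the 12 lowest scores, 3 on each side of the threshold, up to 5 members that passed in each direction (3 smallest p where none passed) in each shoot test, the 5 most extreme in each direction in the tissue fit and the 5 with the smallest p in the genotype fit. The tissue and genotype fits include the root arrays that chose the members, so their estimates are given with no test. The interaction test, the counts by sign in these fits and the rule without HD2967, K9107 or K307 were added after values were seen. Single arrays are named by genotype, tissue, supply and replicate. The annotation paired 1273 probe sets with 1 gene, and 1272 of these were found by gene ID in RefSeq (assembly IWGSC CS RefSeq v2.1). Other members are unnamed here.

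Two-sided tests were run with lmFit, eBayes and contrasts.fit of limma 3.58.1 (R 4.3.3), with normalization sets parted by gaps of over 0.1 in the array medians as a fixed term. P-values were adjusted by Benjamini-Hochberg across 61179 probe sets, and 0.05 was the threshold. Shoot fits used 24 arrays, the tissue fit 48 and the genotype fit 24. The procedure was tested on simulated data. Alternatives left out the set term or the median subtraction, applied quantile normalization, kept bright probe sets alone, left out CL, another genotype or single arrays, or added a replicate block. Residuals of same-numbered stressed and control arrays correlated above 0.1 in all 3 pairs (0.115 to 0.228) in CL shoots alone, so a replicate block within CL, a pairing the labels do not state, was fitted beside the reported fit, which has no block. No 2 arrays held identical values.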

Additional observations from a re-analysis of the deposited data

How the results depend on the processing

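Beside the fits that leave out single arrays, 85 recomputed counts and medians stayed close to the reported value (counts within 1.5 times, medians within the SD of array medians over the members) and 18 did not. Of 101 shoot values of named members 97 kept their direction and their side of the threshold, and the other 4 were calls of the 3 members that fell in the shoot mean. Of 360 such values with 1 array left out, 306 kept both, 50 lost a call of those 3 members and 4 gained one, all of Ta.25181.1.S1_at in K9107 or K307 shoots. No value reversed. In CL shoots 6 members passed after quantile normalization, 4 among bright probe sets alone and 4 with the replicate block within CL. For these limma settings the share of all probe sets that passed was not computed, so the counts are no result about the members. A random replicate block for all genotypes gave 1 higher and 4 lower in the shoot mean, 84 above 0 for root minus shoot and 75 highest in HD2967, and changed no other count by over 1.5 times. Without the CL arrays 0 members fell in the shoot mean. Members with a shoot mean estimate below 0 numbered 50 to 75 across the other settings, which included keeping bright probe sets alone. The methods' t-test at a p of at most 0.1 gave 10, 22, 24 and 22 members in HD2967, K9107, K307 and CL shoots, against 23%, 9.26%, 10.8% and 15.5% of all probe sets, and 0 in CL after Benjamini-Hochberg adjustment. With no set term Ta.13362.1.S1_at did not pass in the shoot mean (adjusted p = 0.136).

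The rule kept 47 of the 100 members when run on HD2967, K9107 and K307 alone, 56 without HD2967, 58 without K307 and 77 without K9107, and 79 to 97 under the other settings. The median K307 root difference was -1.25 with no array median subtracted, -1.11 after quantile normalization, -1.15 over the 50 lowest scores and -0.90 over the 200 lowest. The median K9107 root difference was -1.42 over the 50 lowest and -0.91 over the 200 lowest. Leaving out single arrays, the shoot mean had 0 to 4 members lower, K9107 shoots had 0 to 1 that passed, K307 shoots 0 to 1 and CL shoots 2 to 6, and the K307 median ran from -1.08 to -1.003.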
